A study of Mus musculus with 41 samples.

Results

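The comparison described here set the Runx2 binding sites of 3T3 mouse fibroblasts after 3 days in osteogenic medium against those of the same line at day 0. All 50180 peaks of the day 3 list and all 31013 peaks of the day 0 list were taken, by the names of the lists, giving 81193 of the 155773 peaks in the 8 peak lists of the series. 3T3 is an established line of mouse embryonic fibroblasts. Sites were mapped by ChIP-seq, in which DNA bound to a protein is precipitated with an antibody, here against a FLAG tag, and sequenced. A peak is a stretch of genome where such DNA was enriched. Peaks of one day that shared at least 1 bp with the other day's list were counted as kept. The remaining peaks were day 3 only or day 0 only.

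Runx2 is a transcription factor that binds DNA through its Runt domain, usually with the partner protein CBF-beta. It is required for osteoblast formation and also acts in chondrocytes as they become hypertrophic. Osteogenic media supply ascorbate for collagen maturation, a phosphate donor for mineral, and often a bone morphogenetic protein, whose signal runs through Smad proteins that can bind Runx factors. Fibroblasts that are given Runx2 therefore offer a view of where the factor lands in cells that did not start in the bone lineage.

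The day 3 cells overexpressed Runx2BioFL, a FLAG-tagged Runx2, and had been cultured in DMEM with 10% FBS, to which 100 ng/ml rhBMP-2, 10 mM β-glycerophosphate and 50 µg/ml ascorbic acid phosphate had been added. The day 0 cells overexpressed the same protein and had not had the 3 days of culture in that medium. Both groups carried tagged Runx2, so neither shows the line without it. GFP-overexpressing 3T3 cells at day 3 and day 0, precipitated through FLAG in the same way, were the cells without tagged Runx2. Each of these groups had 1 ChIP-seq library and 1 list. Neither the promoter that drove Runx2BioFL nor the level of the protein on each day was stated in the sources. A difference between the days in the amount of tagged protein therefore cannot be told apart from a difference in the medium. The other lists were Runx2 of rib chondrocytes and of calvarial osteoblasts from Runx2-BioFL/+ knock-in mice at P1, and Foxa2 of chondrocytes and Jun of osteoblasts from wild-type mice at P1. Fibroblast identity could not be checked against marker genes, because a peak list holds no expression values.

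The labels of a pair of these lists were crossed. The sample of Runx2BioFL cells at day 0 was tied to the list named for GFP day 3, and the sample of GFP cells at day 3 to the list named for Runx2 day 0. "The day 0 list" below always means the list named for Runx2 day 0. Of its peaks, 81.8% (95% Wilson interval 81.4 to 82.2%) overlapped the Runx2 day 3 list, 20.7% (20.2 to 21.1%) the osteoblast Runx2 list and 27.2% (26.7 to 27.7%) the chondrocyte Runx2 list. For the 16799 peaks named for GFP day 3 the same shares were 41.9% (41.2 to 42.7%), 15.1% (14.6 to 15.7%) and 14.7% (14.2 to 15.3%). The list of GFP cells at day 0 overlapped 4.37% (4.14 to 4.60%) of the peaks named for Runx2 day 0 and 9.29% (8.86 to 9.74%) of those named for GFP day 3. These shares depend on the lengths of the lists. Of the GFP day 0 peaks themselves, 47.0% overlapped the list named for Runx2 day 0 and 55.8% the shorter one named for GFP day 3. With the exchange that the labels imply, 15.9% of the day 3 peaks were kept in place of 51.4%, and the number of new domains described further on was 2475 in place of 442.

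The lists gave the chromosome, start and end of each peak and no score, height or p-value. Read depth is not given in the sources, so no difference in the number of peaks was tested. With 1 list a day, no value has a replicate error. Each Wilson interval reflects counting error alone, and peaks that lie close together are not independent of each other. Coordinates are 1-based in build mm9. No gene is named because the annotation at hand was of another build.

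The day 3 list was the larger. It held 1.62 times the peaks of the day 0 list and covered 11.0 Mb, against 6.14 Mb at day 0, a ratio of 1.79. Its peaks were also wider, with a median of 213 bp (quartiles 163 and 278 bp) at day 3 and 190 bp (149 and 247 bp) at day 0. Some peaks of a list overlapped each other, 5736 (11.4%) at day 3 and 4129 (13.3%) at day 0. After merging these, 46956 regions were left at day 3 and 28689 at day 0, a ratio of 1.64. The sequence lying in both lists amounted to 3.79 Mb, which was 34.6% of the length covered at day 3 and 61.7% of that covered at day 0.

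By count, peaks found at 1 day alone were mostly those of day 3. There were 24409 day 3 only peaks, which was 48.6% of the day 3 list (48.2 to 49.1%). In the other direction 5643 peaks were day 0 only, which was 18.2% of the day 0 list (17.8 to 18.6%). The lists were also compared at matched length, with the first 31013 day 3 peaks in file order set against all 31013 day 0 peaks. This left 9502 day 3 only and 9646 day 0 only peaks. Lists of the same length that overlap mostly one to one must give nearly the same number of each, so these counts say nothing about what sets the imbalance. The chromosomes were much alike. The share of day 3 only peaks on a chromosome lay between 45.4% on chromosome 2 and 52.2% on chromosome 18, with a median of 49.4% over 20 chromosomes. The share of day 0 only peaks lay between 16.3% on chromosome 8 and 20.8% on chromosome 13, with a median of 18.4%. The ratio of day 3 to day 0 peaks ran from 1.54 on chromosome 7 to 1.70 on chromosome 4.

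Few peaks sat close to the edge of the overlap rule. Among kept day 3 peaks, 576 (2.24%) shared at most 20 bp with a day 0 peak, and 359 day 3 only peaks (1.47%) lay at most 20 bp from one. Among kept day 0 peaks, 520 (2.05%) shared at most 20 bp, and 307 day 0 only peaks (5.44%) lay at most 20 bp from a day 3 peak. The median shared length of kept day 3 peaks was 150 bp.

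Centres of kept sites lay close together on the 2 days. The overlap rule itself bounds this, because centres of peaks that share 1 bp lie less far apart than the mean of their widths. Of the 30418 overlapping pairs, 19979 joined a single peak of each day. In these the centres lay a median of 30.5 bp apart (quartiles 12.5 and 66 bp), and 66.7% were within 50 bp. The median width was 202 bp at day 3 and 185 bp at day 0, and the ratio of day 3 to day 0 width had a median of 1.07 (quartiles 0.838 and 1.40). Peaks were wider at day 3 in 11456 pairs (57.3%), narrower in 8371 (41.9%) and equal in 152. In 4106 pairs (20.6%) the day 3 peak was over 1.5 times as wide, and in 2666 (13.3%) it was narrower by the same factor. Widening was thus the more common direction, but narrowing was frequent too. Centres moved least at the peaks listed first. The median shift was 12.5 bp for pairs in the first of 10 equal parts of the day 0 list and 45 bp in the last.

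Splitting and joining of sites was limited. At day 3, 3634 peaks overlapped 2 or more day 0 peaks, and at day 0, 3896 peaks overlapped 2 or more day 3 peaks. Much of this came from peaks that overlapped within their own list. After merging, 491 day 3 regions held 2 or more day 0 regions and 529 day 0 regions held 2 or more day 3 regions. Only 72 overlapping peaks had the same start and end on both days.

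The 3 kept sites with the largest growth in width were each a sliver at day 0. One on chromosome 16 from 33892494 to 33892991 spanned 498 bp at day 3, against 14 bp at day 0. Another, on chromosome 6 from 113690310 to 113690793, spanned 484 bp at day 3 and 16 bp at day 0, and it was also in the lists of osteoblast Runx2, chondrocyte Runx2, Jun and GFP day 0. A site on chromosome 4 from 139154557 to 139155044 spanned 488 bp at day 3 and 30 bp at day 0, and it overlapped osteoblast Runx2 and Jun. The sources do not say what a peak of so few bases represents, and the share kept was 51.0% at day 3 when every peak was set to 200 bp around its centre.

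File order separated kept from day 3 only peaks. What the order of the files stands for is not stated, so it is a description and not a measure of strength. Over the 10 equal parts of the day 3 list, from the first to the last, the kept share was 95.7, 86.9, 75.6, 67.7, 55.6, 41.4, 32.4, 24.8, 19.0 and 14.5%. Over the same parts of the day 0 list it was 97.8, 94.3, 90.3, 86.0, 84.6, 83.3, 79.0, 74.1, 68.8 and 60.0%. The share declined at every step in both lists, and the decline was steeper at day 3. Overlap was mostly one to one, so the longer day 3 list must have the lower kept share. The difference in steepness therefore cannot be told apart from the difference in list length. The median day 3 only peak stood at 69.8% of the way down the file, against 29.8% for kept day 3 peaks. The median day 0 only peak stood at 72.7%, against 44.8% for kept day 0 peaks.

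**Figure D1:**
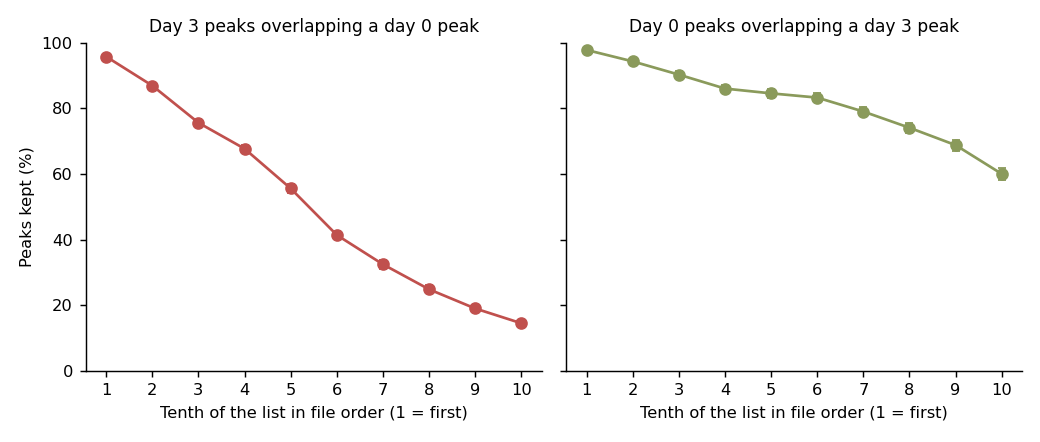
Share of peaks kept (%, y axis) in each of 10 equal parts of a list in file order (x axis), for the day 3 list (left) and the day 0 list (right); bars are 95% Wilson intervals, mostly smaller than the points. The day 3 share falls to 14.5% in the last part, while the day 0 share is still 60.0% there. The day 3 list is the longer one, so its peaks have fewer possible partners.

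Nearly all peaks at the head of each file overlapped some peak of the other day's whole list. All of the first 100 day 3 peaks were kept and 98 of the first 100 day 0 peaks. Of the first 1000, 984 were kept at day 3 and 985 at day 0. Across the 19979 single pairs the ranks had a Spearman correlation of 0.787, as a description over pairs that share their libraries. The position within the pairs moved by at most 10 percentage points for 9972 pairs (49.9%). Moves of over 25 points went to an earlier place at day 3 in 1670 pairs and to a later place in 1626. Of the 1997 pairs in the first of 10 parts by day 0 rank, 1410 (70.6%) were also in the first part by day 3 rank.

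The first kept peaks of the day 3 list were as follows. The first lay on chromosome 17 from 87846371 to 87846548 and overlapped the day 0 peak of rank 5. The second lay on chromosome 5 from 125870167 to 125870247, had rank 2 and the same borders on both days, and also overlapped both lists of GFP cells. The third lay on chromosome 17 from 87846387 to 87846589, overlapping the first, with rank 8 and the same borders at day 0. All 3 were also in both primary Runx2 lists, and in the one named for GFP day 3. Over all kept day 3 peaks those shares were 14.2% and 24.0%.

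Day 3 only peaks appeared first at rank 152. That peak lay on chromosome 3 from 103538756 to 103538903, its nearest day 0 peak was 17099 bp away, and it overlapped Runx2 of osteoblasts and of chondrocytes. The next lay on chromosome 10 from 23507101 to 23507242 at rank 375, only 92 bp from a day 0 peak, and overlapped both primary Runx2 lists and Jun. The third lay on chromosome 16 from 17809356 to 17809537 at rank 445 and overlapped chondrocyte Runx2. Each of these sites was thus in a primary Runx2 list. Among the 214 day 3 only peaks in the first of 10 parts of the file, 42.1% were in either such list. Over all day 3 only peaks the share was 9.91%.

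Day 0 only peaks appeared first at rank 67. That peak lay on chromosome 4 from 125938661 to 125938839, with the nearest day 3 peak 612 bp away. The next lay on chromosome 5 from 33994689 to 33994798 at rank 99 and ended 4 bp from a day 3 peak. The third lay on chromosome 16 from 17809854 to 17810023 at rank 271. Its nearest day 3 peak, 316 bp away, was the day 3 only peak of rank 445 named above. Of these, the first 2 were in both primary Runx2 lists, and the third was in those of osteoblast Runx2 and Jun. Over all day 0 only peaks, 20.8% were in either primary Runx2 list. At the 3 places named, the day 3 list thus held a peak within 1 kb of the one that had no overlap.

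That was common. Of the day 0 only peaks, 2022 (35.8%) lay within 250 bp of a day 3 peak and 3278 (58.1%) within 1 kb, with a median distance of 517 bp. Day 3 only peaks were farther from any day 0 peak, with a median of 8211 bp, 2884 (11.8%) within 250 bp and 24.0% within 1 kb. The day 3 list is the longer one. At matched length the medians were 6163 bp for day 3 only and 3760 bp for day 0 only peaks, so the order was the same and the gap was smaller.

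Distances between classes within a list showed where the added sites lay. From a day 3 only peak to the nearest kept day 3 peak the median was 10289 bp (quartiles 1918 and 32072 bp). From a kept day 3 peak to the nearest other kept peak it was 3670 bp. Within 1 kb of a kept peak lay 19.3% of the day 3 only peaks, against 38.3% of the kept peaks. Within 10 kb lay 49.5% of the day 3 only peaks and 64.0% of the kept peaks. At the far end, 1767 day 3 only peaks (7.24%) had no kept peak within 100 kb. With overlapping peaks merged inside each class, the medians were 10325 bp for day 3 only and 6976 bp for kept regions, and 19.2% and 26.3% lay within 1 kb. Day 3 only peaks lay farther out on either count, by a smaller margin after merging.

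For day 0 only peaks the order among unmerged peaks depended on the distance. Their median distance to a kept day 0 peak was 2973 bp, and 40.4% were within 1 kb, against 4172 bp and 36.2% for kept day 0 peaks to each other. Within 250 bp, however, lay 1021 day 0 only peaks (18.1%) and 6019 kept day 0 peaks (23.7%). Of these, 108 day 0 only and 3809 kept peaks overlapped or touched a kept peak. Most of the kept peaks within 250 bp thus overlapped or touched each other, and the comparison was not repeated with kept day 0 peaks merged. No kept peak lay within 100 kb for 6.06% of day 0 only and 5.04% of kept day 0 peaks. At matched list length the medians were 10881 bp for day 3 only and 7708 bp for day 0 only peaks.

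**Figure D2:**
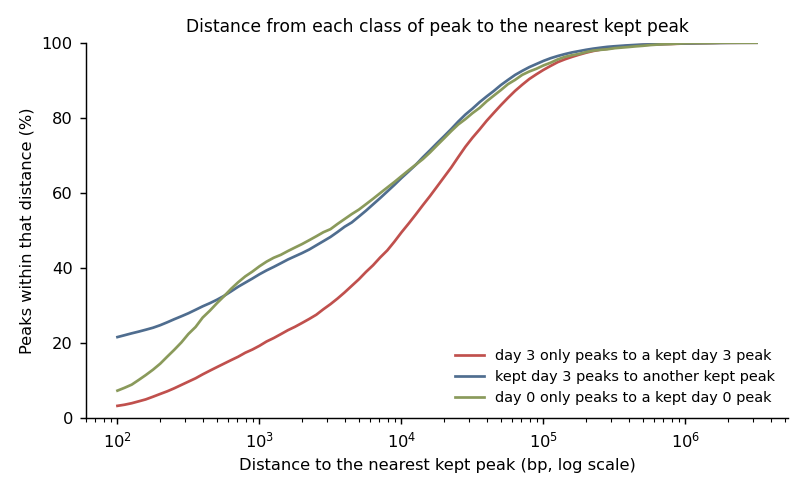
Cumulative share of peaks (%, y axis) within a given distance of the nearest kept peak (bp, log-scaled x axis) for day 3 only peaks, kept day 3 peaks and day 0 only peaks. The curve of day 3 only peaks lies lowest up to 223872 bp, reaching 49.5% at 10 kb, where kept day 3 peaks reach 64.0% and day 0 only peaks 64.5%.

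File order and distance went together. Day 3 only peaks in the first of the 10 parts had a median distance of 3485 bp to a kept peak, and those in the last part had 12200 bp. For kept day 3 peaks the values were 528 bp in the first part and 7054 bp in the last. For day 0 only peaks they were 550 bp and 5355 bp. In each of the 10 parts the day 3 only median was above the kept median. The greater distance of added sites was thus also seen among unmerged peaks in the same part of the file. These medians include kept peaks that overlap each other, and they were not repeated by part on merged regions.

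Peaks were then joined into domains where the gap between neighbours was at most 12.5 kb. The day 3 list formed 20936 domains, of which 10566 were a single peak, and the day 0 list 15532, of which 8754 were a single peak. Of the day 3 only peaks, 14203 (58.2%) sat in 6515 domains that also held a kept peak, and 10206 (41.8%) sat in 7597 domains with none. Of the domains with none, 5791 were a lone peak. Of the day 0 only peaks, 3821 (67.7%) sat beside kept peaks and 1822 (32.3%) apart. A domain with a kept peak need not have been a cluster at day 0, and 1825 of the 6515 held only 1 kept and 1 day 3 only peak. The share of day 3 only peaks was highest for lone day 3 peaks, at 54.8%, and was 50.3% in domains of 2. In larger domains it varied little, at 45.5% in domains of 3 to 5, 46.2% in domains of 6 to 10 and 47.4% in domains of 11 or more.

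A new domain was defined as at least 3 day 3 peaks, none of them overlapping a day 0 peak, with no day 0 peak inside or within 12.5 kb. There were 442 such domains with 1576 peaks, which were found on all 20 chromosomes, with the highest count, 37, on chromosome 4. Most were small: 288 held 3 peaks, 100 held 4, and 54 held 5 or more. Their median span was 9586 bp, and the nearest day 0 peak lay a median of 30.2 kb away. The same definition with the days exchanged gave 11 lost domains with 34 peaks. The day 0 list was the shorter one, and at matched length there were 81 new and 53 lost domains.

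The new domain with the most peaks lay on chromosome 15 from 97822604 to 97864660 and held 12 peaks over 42.1 kb. Of these, 1 overlapped osteoblast Runx2, 3 chondrocyte Runx2 and 3 chondrocyte Foxa2, while none overlapped Jun or either list of GFP cells. Its nearest day 0 peak was 13.6 kb away, only just beyond the joining distance. The peaks ran in groups, with gaps between 48 and 12101 bp, and their widths had a median of 287.5 bp. Their file ranks ran from 14150 to 48567, and 6 of the 12 stood within the first 31013 peaks. Of all 24409 day 3 only peaks, 9502 did.

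The second new domain was the most isolated of the 5 described. It lay on chromosome 9 from 48515492 to 48553256, held 11 peaks over 37.8 kb, and had no day 0 peak within 88.4 kb. Of its peaks, 3 overlapped osteoblast Runx2 and 1 chondrocyte Runx2. The 3 peaks with the earliest ranks, 10019, 10752 and 11891, lay next to each other near its right end.

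The third, on chromosome 5 from 3358800 to 3372317, was the densest, with 8 peaks in 13.5 kb. None of the 8 overlapped any of the 6 other lists. The fourth, on chromosome 6 from 81954180 to 81993065, held 8 peaks in 38.9 kb. It contained the earliest ranks of these domains, 3585 and 5872, and the peak of rank 3585 was 482 bp wide and was in both primary Runx2 lists. The fifth lay on the same chromosome from 140454096 to 140469803 with 7 peaks in 15.7 kb, of which 1 overlapped osteoblast Runx2 and another chondrocyte Runx2. In each of these 5 domains most peaks were in no other list. The number in a primary Runx2 list was 4 of 12, 4 of 11, 0 of 8, 1 of 8 and 2 of 7, in the order given, and the share over all day 3 only peaks was 9.91%.

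The 3 lost domains with the most peaks, ties taken by position, were small. They lay on chromosome 17 from 75863846 to 75870511 with 4 peaks, on chromosome 1 from 169162123 to 169173367 with 3 and on chromosome 2 from 131513407 to 131522362 with 3. None of their peaks was in any of the 6 other lists, and the nearest day 3 peaks were 27.2, 26.8 and 25.1 kb away. Over all lost domains, 25 of the 34 peaks (73.5%, 56.9 to 85.4%) were in no other list. Either primary Runx2 list overlapped 5 of the 34 (14.7%), and the list named for GFP day 3 also overlapped 5. Over all day 0 only peaks, 60.5% were in no other list.

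Of the domains that also held a kept peak, 5 are described that had the most day 3 only peaks. The first lay on chromosome 15 from 36321597 to 36404879 and had 30 day 3 peaks over 83.3 kb, of which 29 were day 3 only. Its single kept peak had rank 615 in the day 3 list and matched the single day 0 peak of the interval. Of the 30 peaks, 28 were in no other list, and 13 of the 29 day 3 only peaks stood within the first 31013 peaks. Of all 24409 day 3 only peaks, 9502 did. The domain was thus a stretch where a lone day 0 site was surrounded by many sites at day 3.

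The next lay on chromosome 8 from 110060550 to 110112338, with 24 day 3 only and 13 kept peaks, against 14 day 0 peaks in the interval. One on chromosome 1 from 95125957 to 95202587 had 23 day 3 only and 7 kept peaks, against 6 day 0 peaks. One on chromosome 5 from 34016920 to 34081137 had 20 day 3 only and 3 kept peaks, against 3 day 0 peaks. The widest domain of the day 3 list, on chromosome 1 from 137556170 to 137685584 over 129.4 kb, had 19 day 3 only and 16 kept peaks, against 17 day 0 peaks. In the order given, 2 of 30, 6 of 37, 2 of 30, 5 of 23 and 7 of 35 peaks of these domains were in a primary Runx2 list. Over the whole day 3 list that share was 9.91% of day 3 only and 38.4% of kept peaks. Between 17 and 29 of the day 3 peaks in each domain were in no other list.

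**Figure D3:**
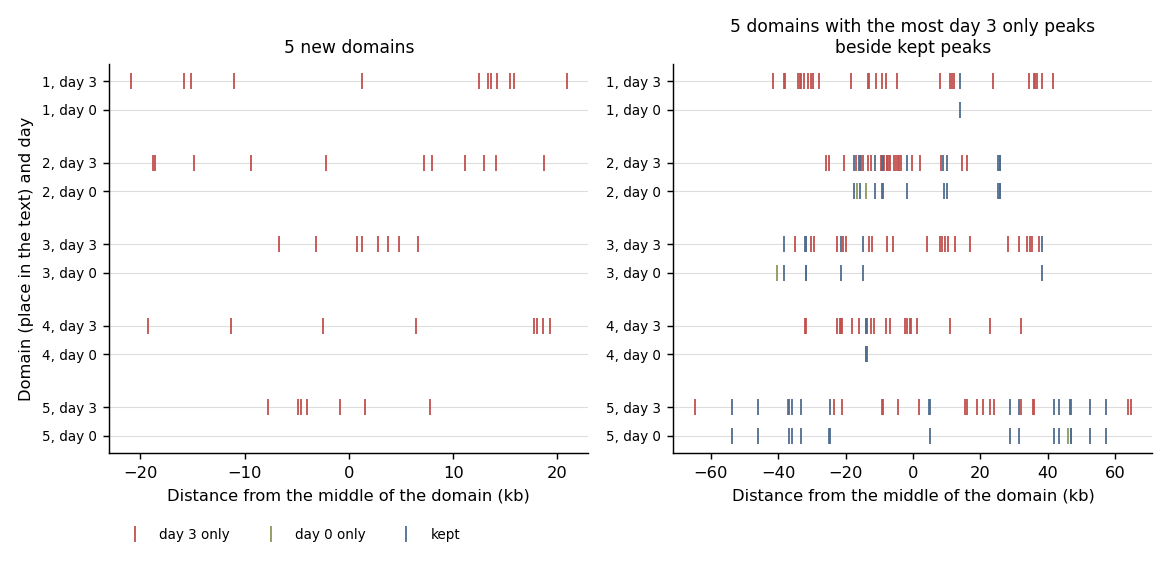
Peak positions, as distance from the middle of each domain (kb, x axis), in the 5 new domains (left) and the 5 domains with the most day 3 only peaks beside kept peaks (right), with day 3 above day 0 for each, numbered in the order of the text. The day 0 rows of the new domains are empty, and in the first domain on the right 29 day 3 only peaks lie around 1 kept peak.

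Compared by part of the file, day 3 only peaks were less often Runx2 sites of primary cells, or sites of the AP-1 subunit Jun, than kept peaks were. Either primary Runx2 list overlapped 9.91% of day 3 only peaks (9.54 to 10.3%) and 38.4% of kept day 3 peaks (37.8 to 38.9%). Since both properties moved with file order, kept peaks were also weighted to the file positions of the day 3 only peaks. The kept share was then 21.2%, so the gap shrank and kept its direction. By the same weighting, osteoblast Runx2 overlapped 4.82% of day 3 only peaks and 9.63% of kept peaks, chondrocyte Runx2 6.65% and 16.0%, and Jun 5.53% and 10.9%. For each of these 3 lists the day 3 only share was the lower one in all 10 parts of the file. In the first part, osteoblast Runx2 overlapped 28.0% of the 214 day 3 only peaks (22.4 to 34.4%) and 51.2% of the 4804 kept peaks (49.8 to 52.6%). This matching is coarse, because the kept share also fell within a part. Of those 214 day 3 only peaks, 16 stood among the first 1000 peaks of the file.

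The list named for GFP day 3 went the other way after weighting. Its share was 7.35% of day 3 only peaks and 6.04% of weighted kept peaks, against 24.0% of kept peaks before weighting, and its share in day 3 only peaks was lower in 2 of the 10 parts, the first and the last. In the third part it overlapped 38.4% of day 3 only peaks and 31.1% of kept peaks. GFP day 0 overlapped 1.66% of day 3 only peaks and 1.76% of weighted kept peaks. Matched by file part, day 3 only and kept peaks therefore differed in their overlap with primary skeletal Runx2 by more than in their overlap with the lists of GFP cells. If the labels are right and the names wrong, the list named for GFP day 3 is itself one of Runx2 cells.

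Foxa2, a forkhead factor precipitated from chondrocytes, overlapped 3.15% of day 3 only peaks (2.93 to 3.37%), 3.33% of kept day 3 peaks (3.12 to 3.56%) and 4.10% of weighted kept peaks. Its share was lower in day 3 only peaks in 9 of the 10 parts and on 11 of 20 chromosomes. Most day 3 only peaks were private: 79.0% (78.5 to 79.5%) were in no other list, against 43.1% of kept peaks and 66.6% of weighted kept peaks.

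**Figure D4:**
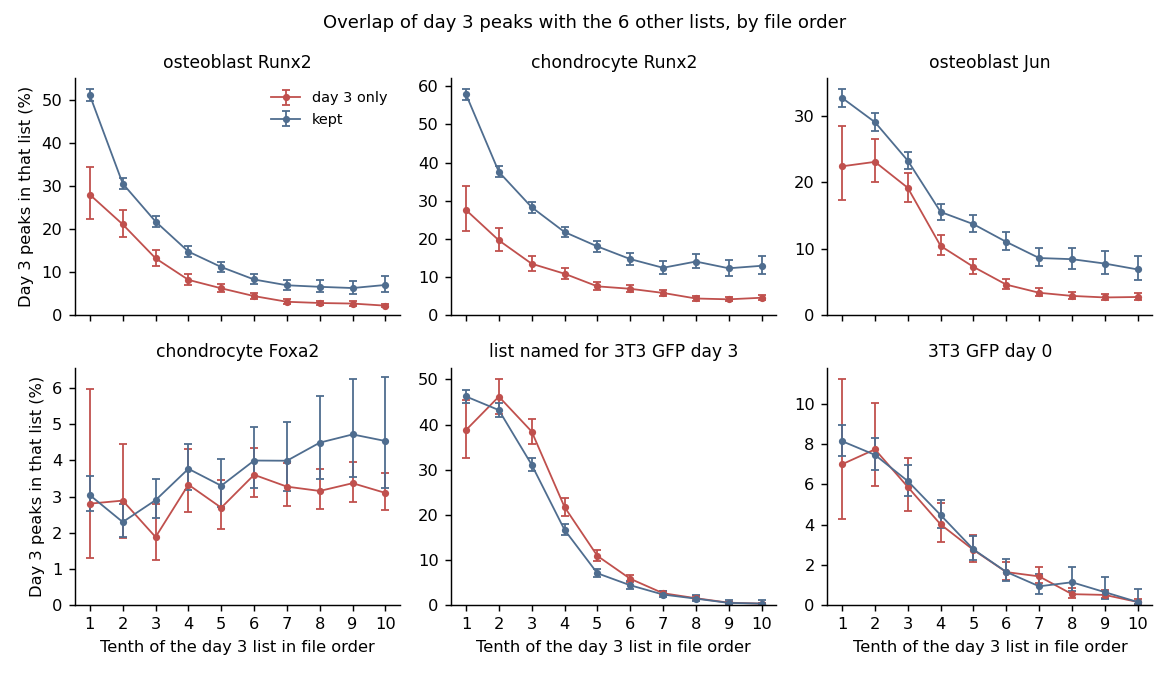
Share of day 3 only and kept day 3 peaks that overlap each of the 6 other lists (%, y axes with separate scales) in 10 equal parts of the day 3 list in file order (x axis); bars are 95% Wilson intervals. Day 3 only peaks lie below kept peaks in all 10 parts for osteoblast Runx2, chondrocyte Runx2 and Jun, and in 2 of 10 for the list named for GFP day 3.

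Over the full lists, which differ in length, day 0 only peaks were nearer to kept peaks in this respect. Osteoblast Runx2 overlapped 10.5% of them and 12.5% of kept day 0 peaks weighted to their file positions, chondrocyte Runx2 14.8% and 19.0%, and Jun 12.6% and 13.0%. The day 0 only share was lower in 8, 9 and 7 of the 10 parts of the day 0 file. Of the day 0 only peaks, 60.5% (59.2 to 61.8%) were found in no other list, against 60.2% of the weighted kept peaks. At matched length, without weighting, the days were more alike. Either primary Runx2 list then overlapped 15.2% of day 3 only and 42.6% of kept day 3 peaks. For day 0 only and kept day 0 peaks the shares were 19.4% and 42.6%.

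At matched list length the kept shares were 69.4% at day 3 and 68.9% at day 0. The day 0 only set then included peaks whose partners stood later in the day 3 file. Chondrocyte Runx2 overlapped 9.89% of day 3 only peaks (9.31 to 10.5%) and 14.2% of day 0 only peaks (13.5 to 14.9%). For osteoblast Runx2 the shares were 8.19% (7.65 to 8.76%) and 9.04% (8.48 to 9.63%), and for Jun 9.77% (9.19 to 10.4%) and 10.9% (10.3 to 11.5%). For the list named for GFP day 3 the shares were 17.2% (16.5 to 18.0%) of day 3 only and 8.68% (8.13 to 9.26%) of day 0 only peaks, and GFP day 0 3.41% (3.06 to 3.79%) and 2.09% (1.83 to 2.40%). Nearly equal shares, 65.1% of day 3 only and 66.0% of day 0 only peaks, were in no other list. At this length day 3 only peaks were thus less often in the chondrocyte Runx2 list than day 0 only peaks. For osteoblast Runx2 and Jun the shares differed in the same direction by less. Their intervals met, which is not a test of the difference. Day 3 only peaks were more often in both lists of GFP cells at this length, but over the full lists that order was reversed. There the list named for GFP day 3 overlapped 7.35% of day 3 only and 14.2% of day 0 only peaks, and GFP day 0 1.66% and 3.05%. The direction for the lists of GFP cells therefore depended on where the day 3 file was cut.

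Added sites close to kept sites differed from those farther away. Of the 4702 day 3 only peaks within 1 kb of a kept peak, 18.3% (17.3 to 19.5%) were in the list named for GFP day 3. Among the 4074 day 3 only peaks beyond 50 kb, 6.09% (5.39 to 6.86%) were. Jun overlapped 11.0% (10.1 to 11.9%) of the near and 5.15% (4.52 to 5.88%) of the far peaks. Between these distances both lists were lower still, at 3.71 to 4.47%.

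Chondrocyte factors ran the other way. Chondrocyte Runx2 overlapped 5.49% (4.87 to 6.18%) of the near and 9.35% (8.50 to 10.3%) of the far day 3 only peaks. Foxa2 overlapped 1.79% (1.45 to 2.21%) of the near and 3.83% (3.28 to 4.46%) of the far ones. For osteoblast Runx2 the shares were 5.44% (4.83 to 6.13%) near and 5.84% (5.16 to 6.60%) far, with intervals that met. Near peaks stood earlier in the file, with a median position of 64.3%, against 71.7% for far peaks. Weighted to the file positions of the far peaks, the near shares were 12.7% for the list named for GFP day 3, 8.60% for Jun, 4.64% for chondrocyte Runx2, 1.95% for Foxa2 and 4.23% for osteoblast Runx2. Weighting changed none of these 5 directions, and the weighted near share of osteoblast Runx2 lay below the interval of the far share.

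**Figure D5:**
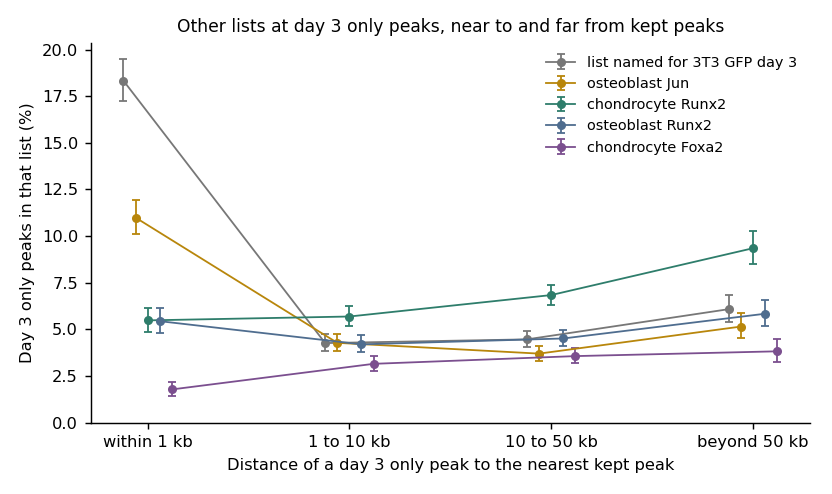
Share of day 3 only peaks in each of 5 other lists (%, y axis) by distance to the nearest kept day 3 peak (4 classes, x axis); bars are 95% Wilson intervals. Within 1 kb the list named for GFP day 3 stands at 18.3% and Jun at 11.0%, while beyond 50 kb chondrocyte Runx2 is the highest at 9.35%.

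Most peaks of the new domains were in no other list, as for day 3 only peaks in general. Of the 1576, 6.03% (4.96 to 7.31%) overlapped osteoblast Runx2, 7.23% (6.06 to 8.62%) chondrocyte Runx2, 4.76% (3.81 to 5.92%) Jun and 4.19% (3.31 to 5.29%) Foxa2. Over all day 3 only peaks, which include these, the shares were 4.82, 6.65, 5.53 and 3.15%. Overlap with the list named for GFP day 3 was 5.77% (4.73 to 7.04%), and 79.8% (77.7 to 81.7%) were in no other list. By peak, either primary Runx2 list overlapped 11.4% (9.88 to 13.0%) of the 1576, against 9.91% of all day 3 only peaks. Of the 442 new domains, 127 held at least 1 such peak. Each domain holds at least 3 peaks, so this count cannot be set against a share per peak.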

How the data were processed

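ChIP-seq peaks of 3T3 cells were compared between day 3 and day 0. The deposited files held positions only, with 3 columns and no score, so no measured unit such as a count or signal was used. The submitters' processing notes name build mm9 and the tools Bowtie and DiffBind, without steps or versions. Peak caller, threshold, controls and the order of the files are not stated. The series holds input libraries of 3T3 cells at day 0 and at an earlier day, and none at day 3. The day 3 list therefore had no input of its own day in the series, and the effect of this was not tested.

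Overlap of at least 1 bp made a peak kept. Distances ran edge to edge. Domains joined peaks at gaps up to 12.5 kb. Weighted shares averaged the kept peaks of each of 10 file parts by the number of day 3 only (or day 0 only) peaks there. Overlap counts were repeated in bedtools 2.31.1, and 0 of 2 differed. The computations used Python 3.11.15, NumPy 2.4.6 and pandas 2.3.3, and figures matplotlib 3.10.9. Scripts were tested on simulated peaks.

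Regions named were the 5 new domains and 5 mixed domains with the most day 3 only peaks, the 3 lost domains with the most peaks, the first 3 peaks of each class and the 3 of largest growth in width, ties by position. Members, lists and rules were chosen with earlier results of these data known. At matched length, the overlaps with other lists, the distances of day 0 only peaks and the sizes of domains were added after seeing the data. Planned counts near gene lists and of motifs were not run, because a genome or annotation of mm9 was not used here. The gene table at hand was of GRCm38: 398 day 3 and 269 day 0 peaks had positions past its last gene on their chromosome.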

Additional observations from a re-analysis of the deposited data

How the results depend on the processing

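Of the day 3 peaks, 51.4% were kept and of the day 0 peaks 81.8%. The day 3 and day 0 shares were 48.3 and 77.5% with overlap of 50% of the shorter peak, 52.5 and 83.7% with centres within 250 bp, and 49.5 and 81.0% with overlapping peaks merged, an alternative chosen after seeing the data. They were 50.3 and 81.2% without peaks in GFP day 0, 45.1 and 78.2% without peaks in either list named for GFP, and 15.9 and 41.9% with the crossed lists exchanged. They were 31.1 and 50.1% in the wider 50% of each list and 69.4 and 68.9% at matched length, where fewer partners are left by construction. The median distance of day 3 only peaks to a kept peak, 10289 bp, was 43196 bp in the wider 50%, 10881 bp at matched length, 10844 bp without GFP day 0, 13766 bp without either GFP list and 67660 bp after the exchange. New domains numbered 442 and lost domains 11. After the exchange there were 2475 new and 97 lost domains, at matched length 81 and 53, and with a joining gap of 50 kb 157 and 5. With at least 2 peaks a domain there were 1571 and 64, and with at least 5 peaks 54 and 0. Lost domains numbered 81 in the wider 50% and 7 with a gap of 25 kb. The share of day 3 only minus kept peaks in another list, in percentage points, was -18.1 for osteoblast Runx2, -22.9 for chondrocyte Runx2, -14.8 for Jun, -0.183 for Foxa2, -16.7 for the list named for GFP day 3 and -3.19 for GFP day 0. Weighted by file position the differences were -4.81, -9.36, -5.33, -0.955, 1.31 and -0.0972, so that for the list named for GFP day 3 turned round. In the first 31013 day 3 peaks they were -13.0 for Jun, -11.4 for the list named for GFP day 3 and -2.25 for GFP day 0. The cause of these shifts was not tested. Leaving out sex chromosomes or setting all peaks to 200 bp moved the 5 main values little. No paired analysis was possible because each day had 1 list. Without read depth or scores, a site missing from a list may be unbound or below the threshold of that list, and these cannot be told apart.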
